A study of Mus musculus with 82 samples.

Results

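The deposited list of genomic regions bound by Adnp in mouse embryonic stem cells holds 15026 peaks, and its last 359 rows stand apart from the rest. The first 14667 rows run through the genome in the order of the number at the end of each peak's name, from 6 to 31188. The number then drops once, to 4, and the remaining rows run through the genome a second time up to 31014. The peaks described here are the 356 of these late-listed rows that lie on chromosomes 1 to 19, and they are compared with the 14547 peaks of the sorted block on the same chromosomes. They were chosen here by row order and name number alone, without use of gene context, width, score or distances. Why these rows come last in the authors' list is not stated. Whether such traits had a part in that order was not tested. They make up 2.39% of the Adnp peaks on these chromosomes. Positions are on mm10 (GRCm38). The last rows of the sorted block lie on chromosome Y, and the last of them spans chrY:90813394-90813845. The first late-listed row lies at chr1:4492028-4492402 inside Sox17, a transcription factor gene of endoderm, and the next 4 are on chromosome 1 as well. The 3 late-listed rows on other sequences were left out of the main comparisons with genes. They are chrX:93988727-93989019, with a score of 20.2, and 1 peak on each of 2 scaffolds not placed in a chromosome sequence.

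Adnp is a zinc finger and homeodomain protein that joins the chromatin remodeller Chd4 and HP1 proteins in the ChAHP complex, which is known in embryonic stem cells for holding down genes of differentiated lineages. HP1γ, encoded by Cbx3, is a heterochromatin protein that reads methylated histone H3 lysine 9 and also occurs at genes. A gene start is the place where transcription by RNA polymerase II begins; the bases just before it form the promoter, which in mammals is often rich in G, C and CpG.

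The series profiled embryonic stem cells of a hybrid 129-C57BL/6 background, kept in 2i medium with LIF, by ChIP-seq, RNA-seq and ATAC-seq, with 82 samples in 32 groups. The Adnp list was made by the authors from untreated cells that carry an Adnp FlagAvi allele, a tag that can be biotinylated and captured on streptavidin; 3 ChIP replicates with matched inputs are labelled for it. The HP1γ list holds only HP1γ peaks without the Adnp motif, as the authors' own name for it states; how the motif was defined is not given in the sources used here. It has 2047 peaks (1994 on chromosomes 1 to 19) and is tied to untreated Cbx3 FlagAvi cells with Adnp KO and to untreated Cbx3 FlagAvi cells without it. Its peak names begin with Cbx3_AdnpKO. In which of these cells each peak was called is not known. The labels do not state whether a line is 1 clone. Each list is 1 set of positions without values per replicate. Every interval below is therefore a 95% interval for counting error only, and no p-value is given. Read depth is unknown, and positions alone cannot show whether the cells express the markers of embryonic stem cells.

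Sequences are shown for 5 gene starts whose surrounding window holds the centre of a late-listed peak. Gene starts were used because the comparison that stood out most concerned them. The 5 were chosen after their values were seen. Prickle1 (planar cell polarity) and Pfkfb3 (a regulatory enzyme of glycolysis) are the highest-scoring protein-coding starts whose windows hold CGCCCCCT. Zfp839 is the higher-scoring of the windows that hold GCCCTCT, Cebpa encodes a transcription factor of liver, fat and myeloid cells, and Adnp is the gene of the bound protein itself. Each line gives the 250 bases before the start, 5′ to 3′ on the gene's strand, from RefSeq (GRCm38.p6). Capitals mark the words CGCCCCCT, GCCCTCT and GGGCGG on either strand, so that AGGGGGCG, AGAGGGC and CCGCCC are the same words read on the other strand; overlapping words run together.
Prickle1: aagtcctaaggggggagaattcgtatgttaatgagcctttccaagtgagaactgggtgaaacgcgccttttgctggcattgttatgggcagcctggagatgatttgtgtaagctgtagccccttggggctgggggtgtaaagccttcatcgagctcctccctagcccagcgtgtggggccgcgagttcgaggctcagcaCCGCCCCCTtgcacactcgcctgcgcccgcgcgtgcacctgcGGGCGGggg
Pfkfb3: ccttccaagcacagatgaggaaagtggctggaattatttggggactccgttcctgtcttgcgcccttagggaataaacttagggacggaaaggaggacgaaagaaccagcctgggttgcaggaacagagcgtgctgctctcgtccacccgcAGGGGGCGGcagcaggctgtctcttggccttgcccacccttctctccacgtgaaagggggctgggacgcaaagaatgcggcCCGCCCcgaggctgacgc
Zfp839: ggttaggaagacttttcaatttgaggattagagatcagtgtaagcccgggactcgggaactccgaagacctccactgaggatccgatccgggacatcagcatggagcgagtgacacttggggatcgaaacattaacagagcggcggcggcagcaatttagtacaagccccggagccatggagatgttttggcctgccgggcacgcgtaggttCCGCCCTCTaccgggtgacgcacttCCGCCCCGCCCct
Cebpa: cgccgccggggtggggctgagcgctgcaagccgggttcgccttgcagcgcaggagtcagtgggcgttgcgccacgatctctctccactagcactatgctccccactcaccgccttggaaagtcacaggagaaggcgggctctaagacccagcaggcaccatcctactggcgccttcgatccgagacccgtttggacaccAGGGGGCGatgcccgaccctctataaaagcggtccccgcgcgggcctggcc
Adnp: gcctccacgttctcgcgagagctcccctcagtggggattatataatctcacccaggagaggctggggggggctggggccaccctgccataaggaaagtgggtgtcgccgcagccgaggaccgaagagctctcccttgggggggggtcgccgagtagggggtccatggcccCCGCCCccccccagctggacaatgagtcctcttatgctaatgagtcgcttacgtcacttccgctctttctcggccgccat
The Prickle1 stretch lies on the minus strand at chr15:93519521-93519770, and its peak spans chr15:93519362-93519798. The Pfkfb3 stretch is chr2:11502091-11502340 on the minus strand, under a peak at chr2:11501973-11502336. The Zfp839 stretch is chr12:110850029-110850278 on the plus strand, with a peak at chr12:110850140-110850509 that covers the first bases of the gene. The Cebpa stretch is chr7:35119043-35119292 on the plus strand, with a peak at chr7:35119125-35119423. The Adnp stretch is chr2:168207113-168207362 on the minus strand, and its peak spans chr2:168207190-168207484.

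The late-listed Adnp peaks lay at the ends of genes more often than the peaks of the sorted block. A peak counted as lying there when its nearest edge was no more than 1 kb from the first or last base of any annotated gene. This was so for 99 of 356 late-listed peaks, or 27.8% (23.4 to 32.7), against 1866 of 14547 peaks of the sorted block, or 12.8% (12.3 to 13.4). The difference was 15 percentage points (10.5 to 19.9). The remaining late-listed peaks were inside genes in 155 cases (43.5%, against 50.8% in the sorted block, a difference of -7.21 points with an interval of -12.3 to -1.96). A further 102 lay between genes (28.7%, against 36.4%, a difference of -7.77 points with an interval of -12.3 to -2.80). With protein-coding genes alone, 77 late-listed peaks (21.6%) and 7.24% of the sorted block were at gene ends, a difference of 14.4 points.

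The difference was found at the starts of genes, and none was detectable where only a gene's other end was near. A gene can have several listed starts, and the nearest one counted. Starts were known on 18 chromosomes, which hold 350 late-listed peaks and 14187 of the sorted block. A start lay within 1 kb of 70 late-listed peaks, or 20% (16.1 to 24.5), and of 763 peaks of the sorted block, or 5.38% (5.02 to 5.76). That difference was 14.6 points (11 to 19). Where a gene's last base but no start was within 1 kb, the counts were 15 (4.29%) and 533 (3.76%), and the difference was 0.53 points with an interval of -1.17 to 3.21. Both a last base and a start were within 1 kb of 6 (1.71%) and 52 (0.367%), a difference of 1.35 points (0.41 to 3.32). Last bases were taken only for genes with a listed start, fewer than the genes used for gene ends above.

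**Figure D1:**
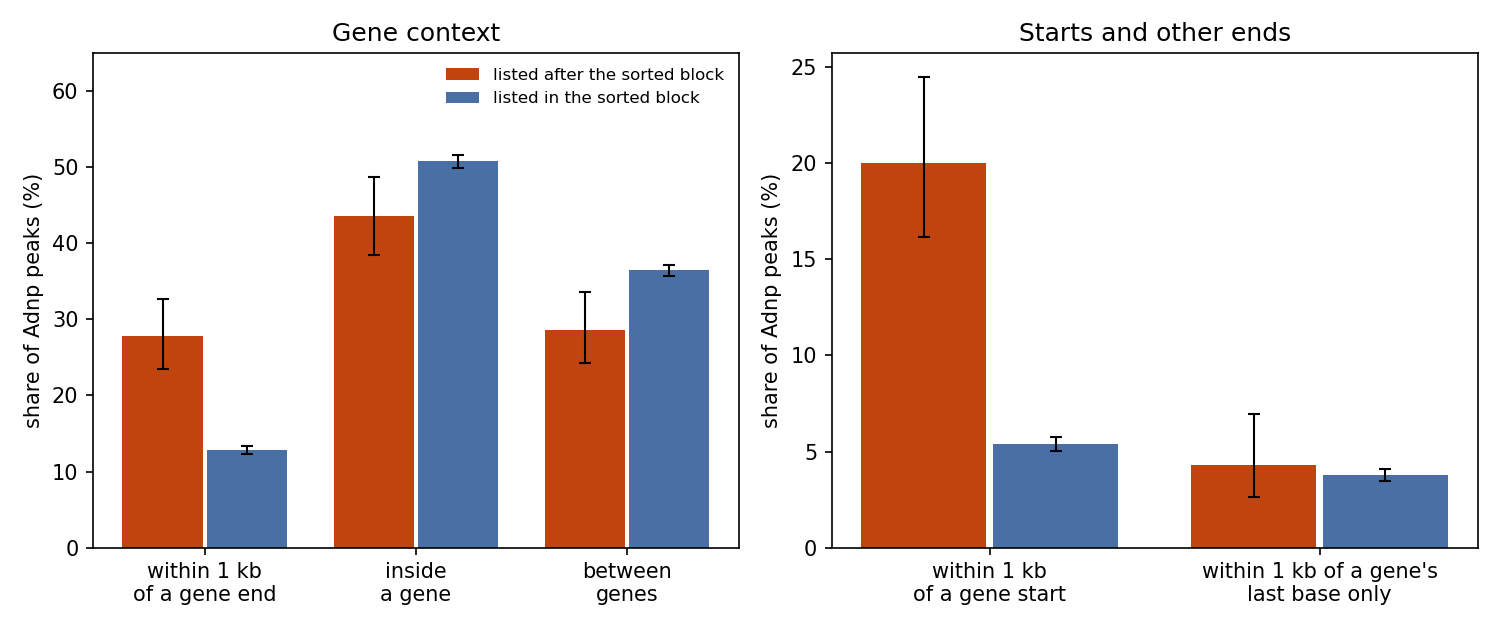
Share of Adnp peaks, in percent, by gene context (left, chromosomes 1 to 19) and near gene starts or only a gene's last base (right, 18 chromosomes), for the late-listed peaks and the sorted block; bars are shares and lines are 95% Wilson intervals. Late-listed peaks reach 27.8% at gene ends and 20% near starts, against 12.8% and 5.38% in the sorted block, while the last-base shares of 4.29% and 3.76% have overlapping intervals.

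The difference, as a ratio, was larger close to the start than within 5 kb. A start lay under 24 late-listed peaks (6.86%) and under 133 peaks of the sorted block (0.937%), a ratio of 7.31. Within 100 bp the shares were 10.6% and 1.39%, a ratio of 7.61, within 500 bp 16.0% and 3.14%, and within 5 kb 36.6% and 22.6%, a ratio of 1.62. Between 1 and 5 kb from the nearest start lay 16.6% of the late-listed peaks and 17.2% of the sorted block, a difference of -0.63 points with an interval of -4.22 to 3.66. Peaks over 50 kb from a start made up 16.3% of the late-listed peaks and 15% of the sorted block. In these outer classes the intervals of the differences include 0.

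**Figure D2:**
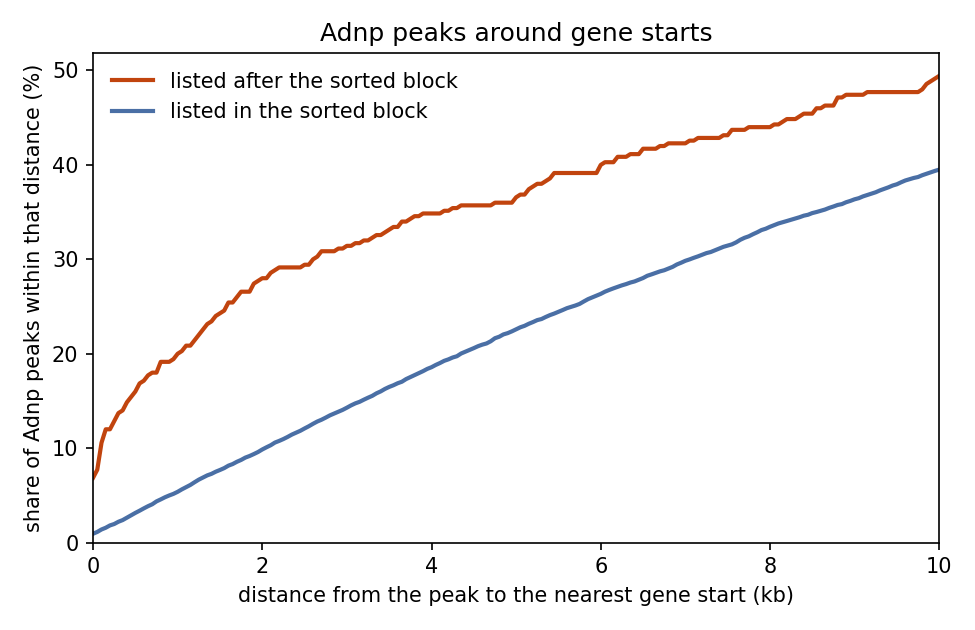
Cumulative share of Adnp peaks, in percent, against the distance in kb from the edge of the peak to the nearest gene start, for 350 late-listed peaks and 14187 peaks of the sorted block. The late-listed line begins at 6.86% and the sorted-block line at 0.937%; within 5 kb they stand at 36.6% and 22.6%.

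The centres of the late-listed peaks lay on both sides of the start. Among the 70 late-listed peaks near a start, 41 (58.6%, 46.9 to 69.4) had their centre upstream, and the median centre was 47 bp upstream of the start. In the sorted block 66.4% (63.0 to 69.7) of the 763 were upstream, with a median of 332 bp upstream. The centres of 23 late-listed peaks (6.57%) fell in the last 250 bp before a start, against 86 in the sorted block (0.606%). The nearest starts of the 70 peaks belonged to 70 different genes, 57 of them protein coding and 13 of them long noncoding RNA genes. Starts on both strands, as at a promoter shared by a pair of genes, lay within 1 kb of 12 of the 70 (17.1%), against 57 of the 763 (7.47%), a difference of 9.67 points (2.32 to 20.3).

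These peaks near starts did not belong to a few chromosomes. The gene-end share was higher in the late-listed peaks on 16 of 19 chromosomes and the start share on 16 of 18. The exceptions for starts were chromosome 5, with 4% against 4.98%, and chromosome 9, with 5.26% against 6.23%. Chromosome 12 had the highest share, with 6 of 10 late-listed peaks near a start, against 4.30% of its sorted block. Chromosome 2 had the most such peaks, 10, or 37.0%, against 6.77%. Late-listed peaks made up between 1.64% of the Adnp peaks (chromosome 18) and 4.35% (chromosome 3) of a chromosome, with 3.81% on chromosome 17 and 3.29% on chromosome 14. Chromosome 11 held most of them, 36.

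**Figure D3:**
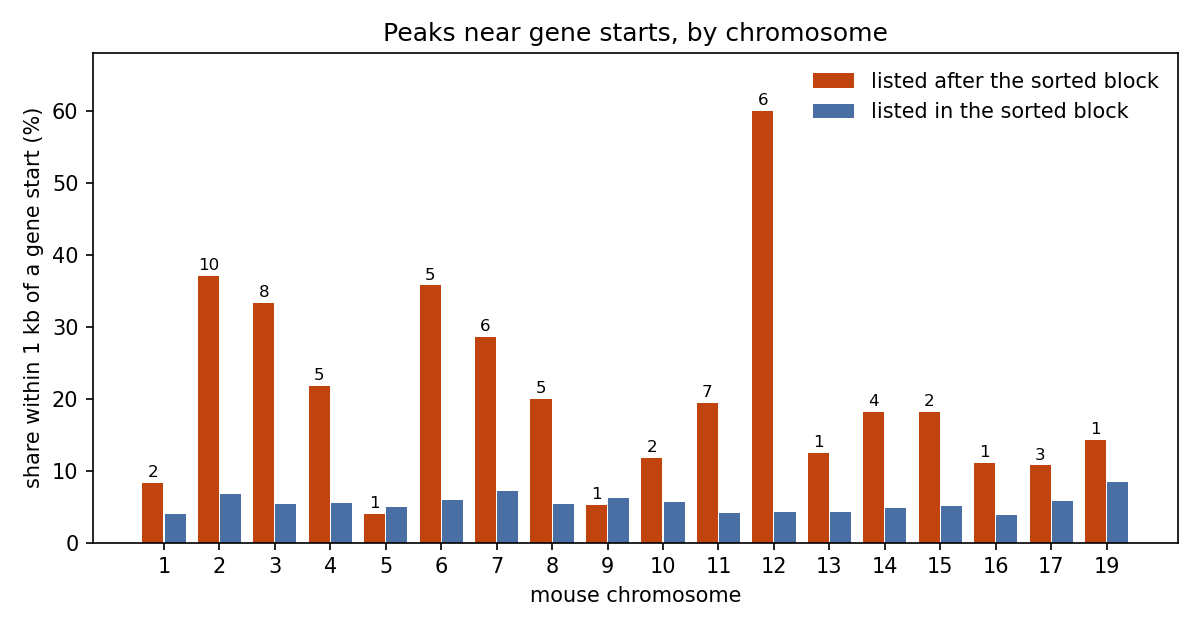
Share of Adnp peaks within 1 kb of a gene start, in percent, on each of 18 mouse chromosomes, for the late-listed peaks (the number above each bar is their count near starts) and the sorted block. The late-listed bar is the higher one except on chromosomes 5 and 9, and many bars rest on fewer than 5 peaks.

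Several of the highest-scoring late-listed peaks near starts had their centre upstream of the start. The score is the authors' own number per peak; its kind is not stated, and it is used here only within the list. The peak with the highest score of those near a start was at Zbtb34, a zinc finger gene of the BTB family, with a score of 43.1 and its centre 270 bp upstream (chr2:33431419-33431770). Scmh1, a Polycomb group gene, followed with 42.9 and a centre 350 bp upstream. Fkbp8, an FK506-binding protein of mitochondria, and Park7, which protects cells from oxidative stress, both had 36.1, with centres 705 and 421 bp upstream. Prmt6, an arginine methyltransferase, had 33.7 at 671 bp upstream, and the next Adnp peak of the sorted block was 1123365 bp away. Asb6 (28.5) and Elovl2 (28.1), an enzyme that lengthens fatty acids, each had a peak that covers the start.

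Some peaks near starts had a start on each strand within 1 kb. The peak at Rps2, a protein of the small ribosomal subunit, had a score of 28.8 and its centre 810 bp downstream of the start of the noncoding RNA gene Snhg9. The peak near Ltbp2, a protein of the extracellular matrix, had 29.6 with a centre 495 bp upstream and a start on each strand nearby. Low scores occurred at starts too: Il3ra, the interleukin 3 receptor alpha chain, had 6.15 at 286 bp upstream, and Celf1, an RNA-binding protein gene, had 6.46 at 230 bp upstream. Near-start and more distant late-listed peaks had like scores, with medians of 16.6 and 16.4.

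Some words differed in frequency between the promoter windows under late-listed peaks and those under the sorted block. The 2 sets of windows were not matched for gene type or base composition. Of all 31396 windows, which reach from 250 bases before to 50 after a start, 28 held the centre of a late-listed peak and 101 the centre of a sorted-block peak. The words were chosen after the data were seen, and a match describes letters only. CGCCCCCT, on either strand, occurred in 14 of 28 windows (50%, 32.6 to 67.4) under late-listed peaks, in 21 of 101 (20.8%) under the sorted block and in 6.11% of all windows. The difference between the first 2 shares was 29.2 points (9.69 to 47.8). GGGCGG, the core of the GC box, occurred in 23 windows (82.1%, 64.4 to 92.1), against 40 (39.6%), and in 36.0% of all windows. The difference between the first 2 shares was 42.5 points (22.3 to 56.0). The pair can share letters, as in the Pfkfb3 stretch AGGGGGCGG.

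The windows under late-listed peaks were also richer in G and C, with a median of 67.2%, against 57.7% under the sorted block and 53% over all windows. Their median number of CpG was 25, against 17 and, over all windows, 7. When all windows were weighted to the G and C content of the 28, CGCCCCCT was found in 14.3% and GGGCGG in 74.2%. The value for CGCCCCCT lies below its interval under late-listed peaks (32.6 to 67.4). The value for GGGCGG lies inside its interval there (64.4 to 92.1), so its share is not set apart from windows of like G and C content. The sorted-block windows alone were not weighted in this way. They also held a larger share of long noncoding RNA starts, some of them low in G and C, such as Gm34462 with 38.3%. The part of base composition in the word counts was not tested further, and that of gene type was not tested.

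The word GCCCTCT was less frequent in whole windows under late-listed peaks, a difference whose interval included 0 when windows were taken in another way. It occurred in 2 of the 28 windows (7.14%), against 26 of 101 (25.7%), a difference of -18.6 points with an interval of -29.2 to -1.37. With any window that a peak overlaps, and only its bases inside the peak, the shares were 7.89% and 13.1%, and the difference of -5.17 points had an interval of -12.2 to 8.25. The share over all windows was 8.43%. GCCCTCT followed by any 2 bases and TG occurred in 1 (3.57%) and 19 (18.8%) windows, and in 0.981% of all windows; the difference was -15.2 points with an interval of -24.4 to 0.29. CGCCCCCT with the same ending was rare, in 2 and 3 windows. CCAAT was found in 28.6% and 26.7%, and TATAAA in 10.7% and 17.8%, with intervals of both differences that include 0.

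Among the printed stretches, the Zfp839 promoter holds GCCCTCT and 3 copies of GGGCGG on the other strand but no CGCCCCCT. The Cebpa promoter holds CGCCCCCT, read on the other strand, and no GGGCGG. The Adnp promoter holds GGGCGG once and neither of the other words.

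The late-listed peaks scored lower than the sorted block and were slightly narrower. Their median score was 16.5 (quartiles 12 to 22, range 3.94 to 65.9), against 21.3 (13.9 to 34.2, range 3.66 to 565). Above the median of the sorted block lay 100 of 356 (28.1%, 23.7 to 33.0), and the late-listed median was the lower one on 19 of 19 chromosomes. Split into 4 score classes of equal size over the whole list, the late-listed peaks numbered 125, 128, 86 and 17 from the lowest to the highest class. The top class held 4.78% of them, against 25.7% of the sorted block. Their excess near starts was present in each of the 4 classes, with shares of 19.5, 20.5, 15.7 and 41.2% from low to high, the last being 7 of 17 peaks. The sorted block had 5.07, 5.0, 5.27 and 6.15%.

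Median width was 370 bp (quartiles 324 to 445), against 397 bp (329 to 482) in the sorted block, and 21 late-listed peaks (5.90%) reached 600 bp, against 10.5%. Higher-scoring peaks were wider: over the 4 score classes, median width was 340, 360.5, 409 and 469 bp in the late-listed peaks and 310, 361, 408 and 471 bp in the sorted block. Within the lowest score class the late-listed peaks were the wider ones, with 64.0% above the median of the sorted block. In the 3 higher classes the interval of that percentage included 50.

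**Figure D4:**
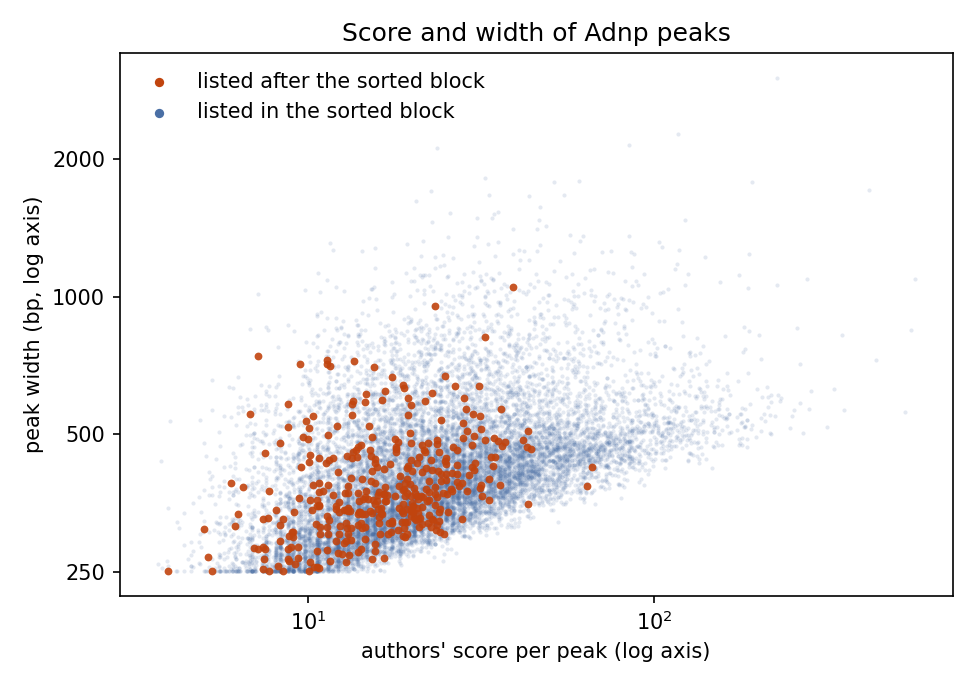
Width in bp against the authors' score per Adnp peak, both on log axes, for the 356 late-listed peaks drawn over the sorted block. Late-listed points run from 3.94 to 65.9 in score and from 251 to 1051 bp in width, and are few in the high-score range that the sorted block fills up to 565.

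At the top of the late-listed peaks stood Ctnnbip1, an inhibitor of β-catenin, with 65.9 at chr4:149530089-149530512 inside the gene. The noncoding RNA gene Gm30928 followed with 63.8. Gm33725 (41.7), Gm11515 (39.0), 4930599N23Rik (36.9), Septin9 (35.8), the adhesion gene Nectin4 (35.4), the integrin gene Itga11 (34.7) and Colq (34.4), which anchors acetylcholinesterase, were also among the 15 highest, as were Zbtb34, Scmh1, Fkbp8 and Park7. Gm11515 also had the widest peak, at 1051 bp, followed by Blvrb (953 bp), an enzyme of haem breakdown, and by a peak near Ipo5 (815 bp).

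The lowest scores were 3.94 near Gm39486, 5.0 at Wnt6, a secreted signalling protein, 5.14 near Sipa1l2 and 5.28 inside Nrp2, a receptor of semaphorins and VEGF. Gm39486 and Nrp2 were also among the narrowest peaks, at 251 bp, together with peaks near Akap12, Gm35297 and inside Cpne5.

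No difference in the spacing of Adnp peaks was detectable. Another Adnp peak was within 10 kb of 150 (42.1%), against 44.7% in the sorted block, a difference of -2.55 points with an interval of -7.64 to 2.69. The median distance to the nearest other Adnp peak was 13506 bp, against 12643 bp. Peaks with no other within 10 kb made up 57.9% and 55.3%, and runs of 4 or more held 12.6% and 12.8%. To another late-listed peak the median distance was 997262 bp. In the numbering, 266 of the 359 rows (74.1%) carried a number next to one in the sorted block. The sorted block itself uses 14667 of the numbers up to 31188, so such neighbours are common for any number. The share for numbers in general was not computed, and 74.1% cannot be read as a trait of the late-listed rows.

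The closest neighbours were 64 bp away from a peak at chr17:45979370-45979700, 74 bp at Gm32796 and 75 bp at Rbms2. Zyx, a focal adhesion protein, had the most isolated peak, with 2863578 bp to the next peak of the sorted block. Late-listed peaks within 10 kb of each other were found as 5 pairs. Pairs lay in Tfeb (585 bp apart), Gm7308 (4174 bp) and Gse1 (6093 bp). The others lay between Gm35399 and Slc29a1 (5657 bp) and between Gm32362 and Pou5f1 (8563 bp). Tfeb, a transcription factor of lysosomal genes, Gse1 and Septin9 were the genes with 2 late-listed peaks. Gse1 held 12 Adnp peaks in all and Tfeb 3, while both peaks counted for Septin9 were late-listed.

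Since the authors left HP1γ peaks with the Adnp motif out of their list, a low overlap with Adnp peaks is partly set by how the list was made. Only groups of Adnp peaks are compared with each other here. The listed HP1γ peaks may come from cells without Adnp, so an overlap need not be joint binding in the same cells. An HP1γ peak without the motif overlapped 8 late-listed peaks by at least 1 bp (2.25%) and 285 peaks of the sorted block (1.96%), a difference of 0.29 points with an interval of -0.84 to 2.42. Within 10 kb the shares were 6.74% and 6.16%. Within the late-listed peaks, 7 of 70 near starts (10%) had a listed HP1γ peak within 10 kb, against 16 of 280 farther away (5.71%). These counts are small, and no interval was computed for their difference. The sorted block was not split in this way, so no difference is read from them.

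Of the 8 overlaps, those at Mkrn3 and Trmt10c were at gene starts. Mkrn3 is an imprinted gene expressed from the paternal copy; its Adnp peak, with a score of 13, spans chr7:62420038-62420377 over the start, and the HP1γ peak spans chr7:62420056-62420610. Trmt10c, a subunit of mitochondrial RNase P, had a score of 6.27 at chr16:56037895-56038228, with the HP1γ peak at chr16:56037715-56038143. The others were 12309 bp from Bcl9, a coactivator of β-catenin, with 22.2, at Rftn2 (16.0), near Impa2 (12.1), in the bile acid receptor gene Nr1h4 (11.4), in Ahnak (10.6) and in BC052040 (9.14).

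Gene lists of lineage and chromatin held between 0 and 1 gene each with a late-listed peak, and at the sizes of these lists such counts cannot be told from the share over all protein-coding genes. Within 5 kb of an end, 197 of 20560 protein-coding genes, or 0.958%, had one, and 4134 (20.1%) had any Adnp peak. Of 23 pluripotency genes, only Pou5f1 had one, while 13 had any Adnp peak. Pou5f1 encodes Oct4, and 2 of the 3 Adnp peaks within 5 kb of its ends were late-listed. The first, chr17:35509599-35509856, had a score of 8.19 and lay inside the gene. It was 921 bp from the gene's last base and 792 bp from an inner start that RefSeq also lists. The other, chr17:35500323-35501036, had 11.3 and lay 4996 bp outside Pou5f1, with Gm32362 as its overlapped or nearest gene. Among 23 endoderm regulators only Sox17 had one, with a score of 7.69, and 5 had any Adnp peak. None of 21 mesoderm and 21 neural regulators had a late-listed peak; 2 and 1 had any.

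Of 9 genes for ChAHP and HP1 proteins, Adnp was the one with a late-listed peak, and 5 had any Adnp peak. That peak had a score of 14.5, lay 78 bp from the start with its centre 225 bp upstream, and overlaps the annotated gene Gm20716 as well. Counts were 0 of 14 genes of H3K9 methylation and silencing, where 7 had any Adnp peak, 0 of 12 for NuRD subunits besides Chd4 (6 any) and 0 of 10 for DNA methylation (5 any). They were also 0 of 29 germ cell genes (7 any), 0 of 39 Hox genes (1 any), 0 of 57 clustered protocadherin genes (2 any) and 0 of 1103 olfactory receptor genes (5 any). Mkrn3 was the 1 of 38 imprinted genes, where 2 had any Adnp peak, and Rps2 the 1 of 93 ribosomal protein genes, where 31 had any.

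Zinc finger genes counted 7 of 459 (1.53%) with a late-listed peak, and 117 with any. The highest scores were at Zbtb34 (43.1), Zfp839 (25.1) and Zbtb45 (15.5), followed by a peak 4600 bp from Zfp653 (15). Of 386 tRNA genes 11 (2.85%) had a late-listed peak and 85 had any. These 11 are not independent, since 6 share the peak at chr11:69042437-69042765, with a score of 16.0. The peaks at chr3:122292744-122293046 and chr17:23540830-23541188 overlap a tRNA gene directly, n-TRtct2 and n-TPcgg1.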

How the data were processed

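The lists of Adnp peaks and of HP1γ peaks without the Adnp motif were deposited by the authors without header lines. Each is 1 set of positions tied to several replicates. Whether these were pooled is not stated in the sources used here. The Adnp list holds a score per peak, as deposited by the authors, of a kind that no label names; in the deposited HP1γ list that column is 0 throughout and was not used. Per the submitters' processing notes, the tools were MACS2, edgeR, STAR 2.5.0a, Bowtie 1.0.0 and bcl2fastq 1.17, with mm10 (GRCm38); their roles and settings remain unstated. The lists give no counts, so depth is unknown. Positions were read as BED intervals and are printed 1-based.

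Genes came from the RefSeq GRCm38.p6 table (46714 genes on chromosomes 1 to 19 starting at 3 Mb or later, 20560 protein coding). Starts came from RefSeq promoter windows (31396 starts of 25748 genes), which cover 80.0% of the protein-coding genes and leave out chromosome 18. Words were counted on both strands. Shares have 95% Wilson intervals and their differences Newcombe intervals, late-listed minus sorted block. Peaks are not replicates and neighbouring peaks are not independent. The assignment and interval steps were tested on simulated data. Alternatives were other windows, gene sets, peak centres, joined peaks, weighted comparisons, other chromosomes and the block without chromosome 11; those on gene starts and words were added after the data were seen.

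The peaks described, the gene lists and the tests were chosen with earlier results of these data known. Named genes were the 15 highest and 10 lowest scores, up to 15 at protein-coding gene ends, genes with 2 peaks, HP1γ overlaps, up to 4 genes per list, the 5 widest, narrowest, closest and most isolated peaks, and 5 rows on each side of the break; the main ones are printed, and some that the rule names are not reported here. Pfkfb3, Cebpa and the other printed stretches were picked after their values were seen. Scripts ran in Python 3.11.15 with pandas 2.3.3, NumPy 2.4.6 and SciPy 1.17.1; figures were drawn with matplotlib 3.10.9.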

Additional observations from a re-analysis of the deposited data

How the results depend on the processing

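The share at gene ends kept its direction, with an interval of the difference above 0, under every alternative run (13.8 to 21.7 points), as did the share near starts (12.9 to 18.1 points) and the lower score. The 21.7 points came from joining peaks within 10 kb. The joined late-listed regions can also hold sorted-block peaks and had a median length of 478 bp, against 425 bp. That value is therefore not one for single peaks. Weighted to the late-listed score classes, the sorted block was no longer the wider one: the share above its median width (363 bp) minus 50 was 3.93 points with an interval of -1.26 to 9.04, against -12.1 unweighted. Differences for the listed HP1γ peaks turned to -0.00757 points with centres within 1 kb and -0.629 points within 100 kb, with intervals that include 0. Summed over the gene lists, 23 genes had a late-listed peak within 5 kb, 11 within 1 kb, 47 within 20 kb and 10 with the peak inside the gene. The other 53 alternative values of the main comparisons kept their direction or size. With any overlapping start window taken, and only its bases inside the peak, there were 38 late-listed and 245 sorted-block windows, of which 39.5% and 11.8% held CGCCCCCT. No paired analysis was possible because each list is 1 set of positions that carries no values per replicate. With 28 windows, the word shares are the least precise values, and depth is unknown.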
